A study of Mus musculus with 18 samples.

Results

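The transcriptome of early thymic progenitors (ETP) was compared between the fetal and the adult mouse thymus. The comparison was set by the sample titles: the 3 arrays of fetal ETP against the 3 arrays of adult ETP, fetal minus adult, which are 6 of the 18 arrays of the series, the other 12 being DN2 and DN3 arrays of both ages. Fetal ETP came from C57BL/6 embryos that the labels place at E14.5, without a sex, whereas the methods of the study give a stage 1 day later. Adult ETP came from thymi of female C57BL/6 mice aged 4 to 6 weeks. Cells of both ages were wild type and untreated, and were sorted as Lin-CD44+CD25-c-Kit+ after depletion with antibodies that included those against CD8α, CD3ε, NK1.1, CD11b and TER119. Each fetal array held the RNA of 2 pooled sorts and each adult array that of 4 pooled sorts, so that age goes together with the number of sorts and, in part, with sex, and these cannot be told apart. The study speaks of technical replicates and the labels of biological ones, and the p-values therefore measure the spread between arrays only. That spread was pooled over all 18 arrays, DN2 and DN3 included, and not taken from the 6 ETP arrays alone. A gene that varies among the DN2 or DN3 arrays can thus miss the limit though its ETP arrays lie apart.

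ETP are the earliest well defined progenitors in the thymus. They enter from the blood, still hold some myeloid, dendritic and natural killer potential, and give it up under Notch signals while they pass through the CD25+ DN2 and DN3 stages, where the T cell receptor genes are rearranged. The fetal thymus is seeded by precursors from the fetal liver and makes waves of invariant γδ T cells and other innate-like lymphocytes, whereas the adult thymus is seeded from the bone marrow and mainly makes αβ T cells with diverse receptors.

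RNA of 80000 cells per array was amplified in 2 cycles and hybridised to an Affymetrix mouse expression array, which carries short oligonucleotides for each transcript in groups called probe sets. The deposited values are on a log2 scale, on which 1 unit is a factor of 2, and every probe set was centred on its median over the 18 arrays. A value therefore says how far an array lies above or below the middle of the series for that gene, and gives no level that could be set against another gene. Probe sets for 1 gene numbered 20380 of 22626 and covered 12393 genes. The table gives no read depth, and the precision is limited by the number of arrays. The pooled SD between replicate arrays was 0.313 log2 in fetal ETP and 0.450 log2 in adult ETP.

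The values of the sorting markers did not go against the labels. Kit, the receptor used in the sort, lay at 1.59, 1.29 and 0.72 in fetal ETP and at 1.97, 0.21 and 0.30 in adult ETP, above the middle of the series on all 6 arrays. Cd44 lay between 1.72 and 2.17 in fetal ETP and between 2.29 and 2.34 in adult ETP, and neither gene was called. Il2ra, which encodes CD25, lay below the middle of the series on all 6 arrays. Several defining genes of cells that the gate should not hold did not vary, and lay between -0.26 and 0.16 on every ETP array. These were C1qa (macrophages), Cd79a and Pax5 (B cells), Cd4 and Cd8a (later thymocytes), Itgam (myeloid cells), Col1a1 (fibroblasts), Krt5 and Foxn1 (thymic epithelium). A centred value near 0 does not show that a cell type is absent. Other macrophage, myeloid and B cell genes did differ, as given below. Mpeg1, Cd163, Ctsg, Ighm and Igha were lower in fetal ETP, and Lgals3 and Cx3cr1 were higher. Of 29 thymic stroma genes, 3 (10.3%) were called higher in fetal ETP and 1 (3.45%) lower, against 6.16% and 4.06% of all genes. Krt18, a keratin gene, lay at 1.55, 2.09 and 2.27 in fetal ETP and at -0.37, -0.86 and -0.01 in adult ETP (2.38 ± 0.41 log2, adjusted p = 0.00227), Epcam was 2.01 ± 0.60 log2 higher (adjusted p = 0.0496), Esam, which stem cells also express, was higher, and Plvap was lower (-1.92 ± 0.57 log2, adjusted p = 0.0487). The calls of Epcam and Plvap were lost under most alternative settings, and whether stromal RNA had a part in the results was not tested. In bulk RNA, fewer cells of a type and less RNA per cell cannot be told apart.

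Fetal and adult ETP differed at many genes. A probe set was called when its adjusted p (limma, Benjamini-Hochberg) lay below 0.05 with a change of 1.8-fold or more. By this rule 1921 of 22626 probe sets (8.49%) were called, 1141 (5.04%) of them higher in fetal ETP and 780 (3.45%) lower. With 1 probe set per gene, 1267 genes (10.2%) were called, 764 (6.16%) higher and 503 (4.06%) lower. These 2 shares of all genes are the ones to set beside the counts of every gene list below. The median size of the difference was 1.52 log2 among the higher genes and 1.64 log2 among the lower ones, and 33 higher and 38 lower genes differed by at least 4 log2. Of the called genes with several probe sets, 97 of 460 higher and 78 of 252 lower ones had another probe set called the same way. Another probe set was called the other way for 2 higher genes (Kif23 and Rnf146) and 1 lower gene (Coro1c). Kif23, counted among the higher mitosis genes below, differed by 1.85 log2 by the probe set counted and by -0.94 log2 by the opposite one. Of the genes called higher, 745 had no overlap between the fetal and the adult arrays, and of those called lower, 489. This says little by itself, because 60.5% of all genes did not overlap, 51.0% with the fetal arrays on top and 9.47% with the adult arrays on top: the adult arrays lay slightly lower over the whole table, and the median over all genes was 0.07 log2. Quantile normalization between arrays gives every array the same distribution of values, which does more than remove such a shift. It called 425 probe sets higher and 495 lower, so that 46.2% of its calls were higher against 59.4% in the values as deposited. Centring each array on its median left 980 higher and 856 lower (53.4% higher). Leaving out fetal ETP replicate 2 left 719 probe sets called higher.

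Some of the called genes set adult ETP apart from every other group. Of the 764 genes called higher in fetal ETP, 305 (39.9%) were lower on all 3 adult ETP arrays than on any of the other 15 arrays, against 3.7% of all genes, and 45 (5.89%, against 1.1%) were higher on all 3 fetal ETP arrays than on any other array. Of the 503 genes called lower in fetal ETP, 253 (50.3%, against 3.53% of all genes) were higher on all 3 adult ETP arrays than on any other array, and 12 (2.39%, against 0.299%) were lower on all 3 fetal ETP arrays. The called genes were chosen by the same arrays, so that these shares are a description. For 150 of these 503 genes, every array other than adult ETP stayed within 1 log2 unit of 0. The same held for 8040 of all 12393 genes, a larger share, so that this count does not set the called genes apart.

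**Figure D1:**
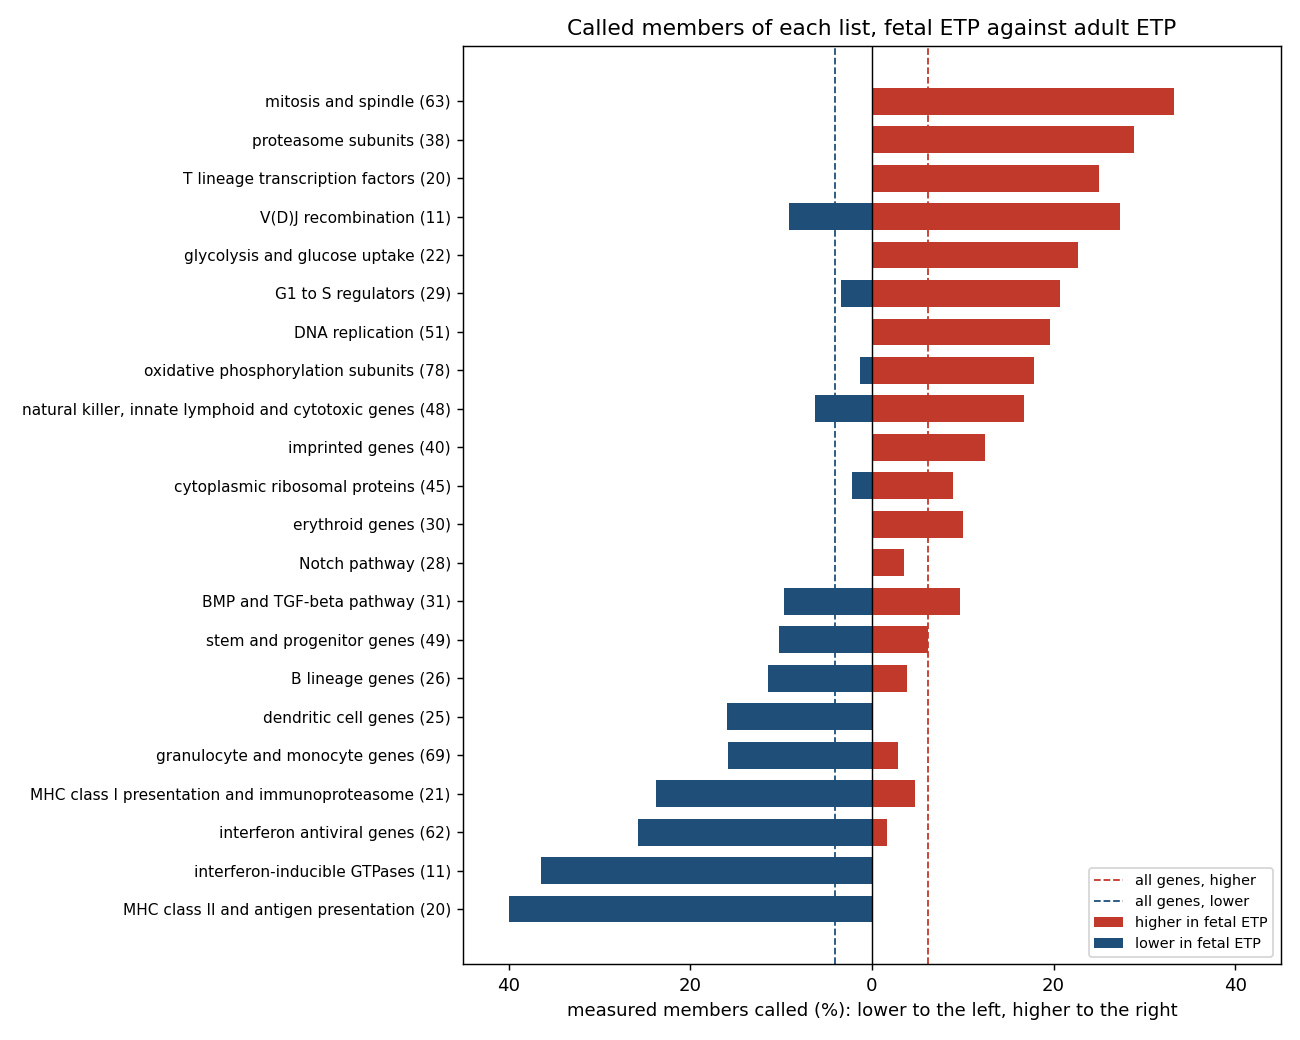
Share of the measured members of 22 gene lists (horizontal axis, percent) called higher in fetal ETP (red, to the right) or lower in fetal ETP (blue, to the left) than in adult ETP, with the number of measured members in parentheses and the shares over all genes as dashed lines. Mitosis and proteasome genes reach furthest to the right, and MHC class II genes and interferon-inducible GTPases furthest to the left.

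The largest single difference was that of Dntt, which encodes terminal deoxynucleotidyl transferase, the enzyme that adds untemplated nucleotides to the joints of rearranged receptor genes. It lay at -5.64, -5.69 and -5.66 in fetal ETP and at 6.39, 6.19 and 5.58 in adult ETP. The fetal arrays were nearly identical and all far below every adult array, with a log2 difference of -11.72 ± 0.16 (n = 3 each, adjusted p = 1.73e-14). Here and below, ± gives the SE from the spread pooled over all 18 arrays. The call of Dntt held under every alternative setting that was tried. The recombinase genes went the other way. Rag1 lay at -1.56, -0.84 and -0.44 in fetal ETP and at -5.18, -3.93 and -4.89 in adult ETP, a difference of 3.72 ± 0.43 log2 (adjusted p = 0.000117). Its partner Rag2 was 2.04 ± 0.32 log2 higher in fetal ETP (adjusted p = 0.00109), with fetal arrays from -0.66 to -0.40 and adult arrays from -2.71 to -2.36. Xrcc5, the Ku80 subunit of the end-joining machinery, was 1.35 ± 0.27 log2 higher. Among 11 measured genes of V(D)J recombination, 3 were thus higher in fetal ETP, Dntt was lower, and 7 were not called. The study names Rag1 and Rag2 among its own genes of interest, so that they are not independent choices.

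T lineage genes were higher in fetal ETP in some of their members. Cd3g, which encodes the γ chain of the CD3 complex, lay at -2.33, -1.55 and -2.10 in fetal ETP and at -11.98, -8.58 and -7.52 in adult ETP. All adult arrays were low, the first by far the lowest, and the difference was 7.37 ± 0.77 log2 (adjusted p = 5.18e-05), or 6.06 log2 without adult ETP replicate 1. The other CD3 chains were not called: Cd3e differed by 0.69 ± 0.45 log2 (adjusted p = 0.234) and Cd3d by 1.90 ± 0.81 log2 (adjusted p = 0.137), with overlapping arrays for Cd3d. Trbv13-2, a variable segment of the T cell receptor β chain, was 4.28 ± 0.33 log2 higher in fetal ETP (adjusted p = 3.32e-06), whereas Ptcra, which encodes the pre-T cell receptor α chain, missed the limit (2.10 ± 0.67 log2, adjusted p = 0.0647). The kinase genes Txk and Prkcq were 1.97 and 1.22 log2 higher, and Txk lay at 0.18 on fetal ETP replicate 1 against 2.39 and 2.19 on the other fetal arrays, and its call was lost without either of these. Cd6, a surface receptor of T cells, was lower in fetal ETP (-3.13 log2), a call that was lost without adult ETP replicate 1 or 3 or fetal ETP replicate 1 or 2. Of 27 measured genes of the receptor and its signalling, 4 were higher, 1 was lower and 22 were not called, and the fourth higher gene, the adaptor Lat (1.10 log2), turned to -0.09 log2 after quantile normalization.

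Bcl11b, the zinc finger factor that closes the alternative fates of T cell precursors, lay at -2.61, -2.25 and -3.34 in fetal ETP and at -7.06, -6.35 and -6.03 in adult ETP. Both groups were below the middle of the series, fetal ETP much less so, with no overlap and a difference of 3.75 ± 0.49 log2 (adjusted p = 0.000323). The E protein gene Tcf12 was 1.79 log2 higher in fetal ETP, Ets2 1.16 log2, Zfp105 1.15 log2 and Gata3, a master factor of early T cells, 1.52 ± 0.41 log2 (adjusted p = 0.0320). A second Tcf12 probe set differed by 0.24 log2 and was not called. For Gata3 the groups met: fetal arrays lay at 0.32, 0.13 and -0.71 and adult arrays at -0.68, -2.09 and -2.05, and the call was lost without adult ETP replicate 2 or 3 or fetal ETP replicate 1 or 2. In all, 5 of 20 T lineage transcription factor genes were higher in fetal ETP and none was lower, with a median of 0.37 log2 (0.07 log2 over all genes), and the median was -0.02 log2 and the count 2 after quantile normalization. The count was also 2 with only the 6 ETP arrays and 3 without adult ETP replicate 2 or 3. Centring each array on its median left it at 5, with a median of 0.30 log2. Among 28 Notch pathway genes only Dtx1, a Notch target, was called (1.96 log2 higher, lost without adult ETP replicate 2 or any fetal replicate), while Notch1 (0.03 ± 0.55 log2) and Hes1 (0.39 ± 0.42 log2) were not. The probe sets of Notch3 disagreed, with 0.07 ± 0.67 log2 for the probe set counted and 3.74 ± 0.64 log2 (adjusted p = 0.00221) for the other, and 3 Notch pathway genes were called higher with the mean of all probe sets. Thy1, a surface marker that T cell precursors gain, was 2.95 log2 higher in fetal ETP, a call that was lost without adult ETP replicate 2 or fetal ETP replicate 2.

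**Figure D2:**
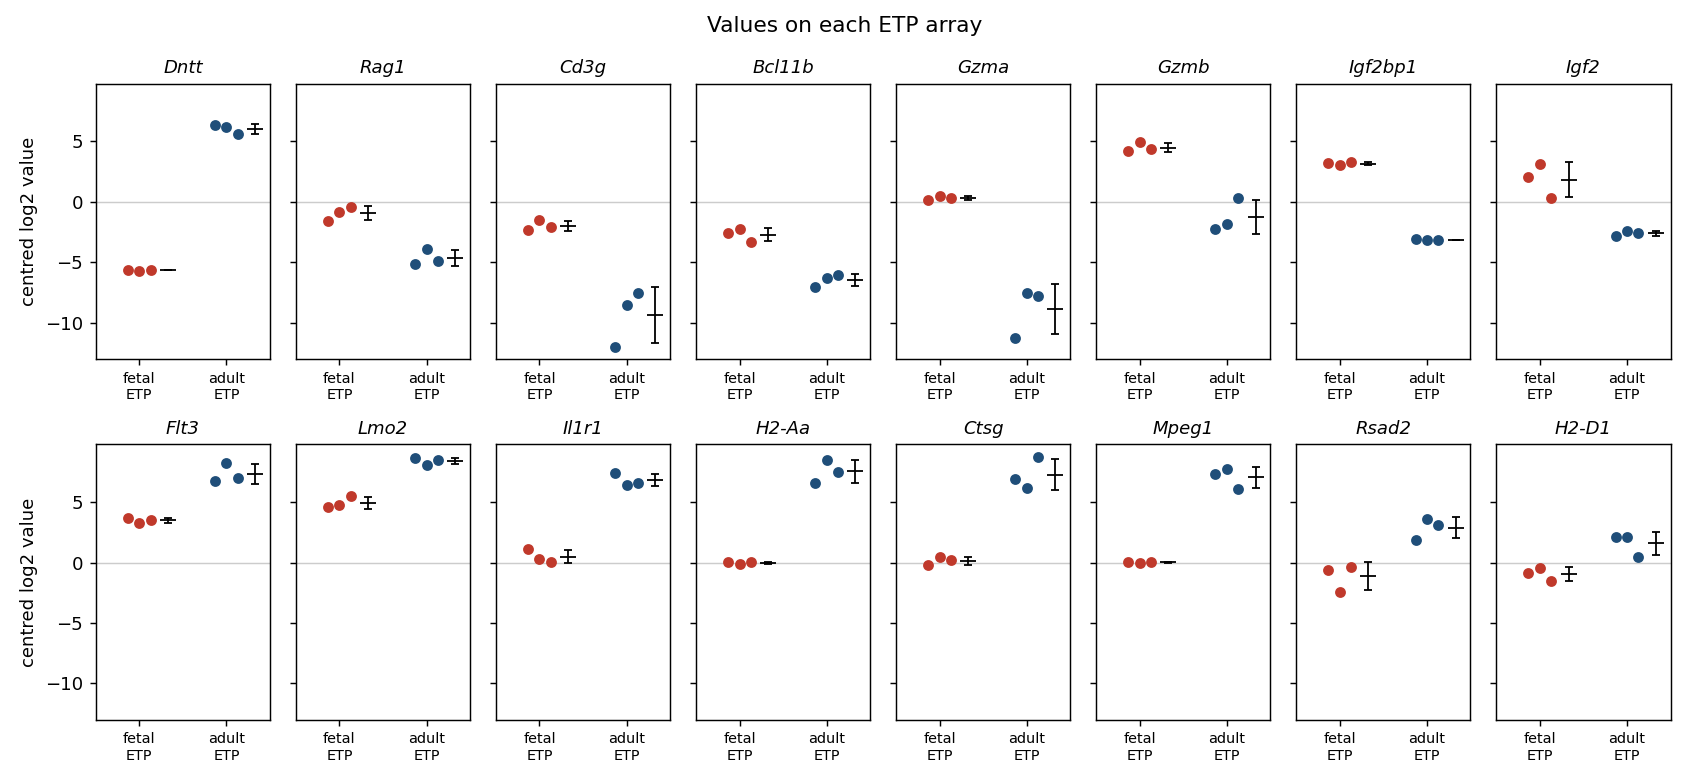
Centred log2 value (vertical axis) of 16 genes on the 3 fetal ETP arrays (red, left) and the 3 adult ETP arrays (blue, right), with the mean and SD in black and 0 as the median over the 18 arrays. In all 16 panels the fetal and the adult points do not overlap, and Dntt shows the widest gap.

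A few genes known from fetal tissues were strongly shifted. Of the 9 measured genes of the Lin28, Igf2bp and Hmga list, 2 were called higher (22.2%, against 6.16% of all genes) and 7 were not called. The median of this list was 0.15 log2, against 0.07 log2 over all genes. Igf2bp1, a let-7 target whose product binds mRNAs in fetal cells, lay at 3.19, 3.04 and 3.25 in fetal ETP and at -3.12, -3.17 and -3.18 in adult ETP, a difference of 6.32 ± 0.26 log2 (adjusted p = 5.76e-09) that every alternative setting kept. The chromatin protein gene Hmga2, a let-7 target, lay between 3.43 and 3.86 in fetal ETP and between 0.21 and 1.58 in adult ETP (2.82 ± 0.28 log2, adjusted p = 3.51e-05). For Igf2bp3 the probe set counted did not pass (2.17 ± 0.66 log2, adjusted p = 0.0510), and the other 3 did, with 1.48, 1.75 and 2.42 log2 (adjusted p = 0.0132, 0.00369 and 0.0212). Imprinted genes, of which the copy of only 1 parent is used, had a median of 0.11 log2 over 40 measured members. Of the 40 members, 5 were higher in fetal ETP (12.5%, against 6.16% of all genes) and none was lower. These were the growth suppressor Ndn (5.59 ± 0.70 log2), the fetal growth factor Igf2 (4.46 ± 0.75 log2), Ddc (4.25 ± 0.28 log2), Grb10 (2.98 ± 0.28 log2) and Mcts2 (2.73 ± 0.48 log2). Igf2 lay at 2.09, 3.16 and 0.27 in fetal ETP and at -2.87, -2.39 and -2.62 in adult ETP, so that fetal ETP replicate 3 stood below the other fetal arrays and above all adult arrays. A second Igf2 probe set differed by 0.08 log2 and was not called. Dlk1, Mest, Peg3 and the other 32 imprinted genes were not called.

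Cytotoxic and innate lymphoid genes were among the largest rises. Gzma, a granzyme of killer lymphocytes, lay at 0.11, 0.45 and 0.27 in fetal ETP and at -11.29, -7.51 and -7.81 in adult ETP. Adult ETP replicate 1 was the lowest, and the groups were far apart, with a difference of 9.15 ± 0.69 log2 (adjusted p = 2.44e-06), or 7.94 log2 without that array. Gzmb lay at 4.19, 4.95 and 4.33 in fetal ETP and at -2.29, -1.85 and 0.31 in adult ETP (5.76 ± 0.57 log2, adjusted p = 3.00e-05). Id2, the inhibitor of E proteins that innate lymphocytes need, was 1.84 ± 0.26 log2 higher (adjusted p = 0.000603), and Fcer1g, a signalling chain shared by innate receptors, was 1.79 ± 0.42 log2 higher (adjusted p = 0.0151), a call that was lost without adult ETP replicate 2 or fetal ETP replicate 1 or 2. Prf1, which encodes perforin, lay between -0.04 and 0.05 on all 6 arrays. Klrc1, the NKG2A receptor gene of natural killer cells, lay at 5.07, 3.95 and 0.61 in fetal ETP and at 0.02, -0.15 and -0.13 in adult ETP, and its call was lost without fetal ETP replicate 2. Il18r1 and Il18rap, the 2 chains of the interleukin 18 receptor, were lower in fetal ETP (-2.35 and -2.47 log2), Il18rap with overlapping arrays and a call that was lost without adult ETP replicate 1 or 2 or fetal ETP replicate 1 or 2. Over 48 measured natural killer, innate lymphoid and cytotoxic genes, 8 (16.7%) were higher and 3 (6.25%) were lower, against 6.16% and 4.06% of all genes. Without fetal ETP replicate 1 or 2 the counts were 5 and 1, without adult ETP replicate 1 they were 6 and 1, and with only the 6 ETP arrays 3 and 0. Of 15 measured γδ T cell genes 1 was higher and 1 was lower (6.67% each), near the shares of all genes. The γ chain variable segments Trgv1 (2.17 log2) and Trgv4 (0.34 log2) were not called.

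Of 33 chemokine and homing receptor genes 2 (6.06%) were higher and 3 (9.09%) were lower, close to the 6.16% and 4.06% of all genes. Cxcr6, a chemokine receptor of innate-like lymphocytes, lay at 3.38, 3.57 and 1.08 in fetal ETP and between -0.16 and 0.00 in adult ETP (2.78 ± 0.45 log2, adjusted p = 0.00155). Ccr9, the receptor for the thymic chemokine CCL25, lay at -1.24, -1.85 and -0.84 in fetal ETP and at 2.13, -0.15 and 1.11 in adult ETP (-2.34 log2, adjusted p = 0.0241). That call was lost without adult ETP replicate 1 or 3 or fetal ETP replicate 1 or 2, and other Ccr9 probe sets were not called. Ptger2, a receptor for prostaglandin E2, was lower (-4.08 ± 0.61 log2, adjusted p = 0.000865), as was the sphingosine phosphate receptor gene S1pr4 (-1.19 ± 0.19 log2). Ccr7 and Cxcr4 were not called. Itgae, the αE chain that pairs with β7 to bind E-cadherin, was 2.24 ± 0.40 log2 higher (adjusted p = 0.00292), as was Itga2b (2.23 ± 0.48 log2). These were the 2 called of 21 integrin genes (9.52%, against 6.16% of all genes).

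Other genes were among the largest rises. The claudin gene Cldn2 was 7.17 ± 0.51 log2 higher, Enah, an actin regulator, 7.24 ± 0.33 log2 and the actin bundling gene Fscn1 5.26 ± 0.74 log2, each by 1 probe set, while no other probe set of these genes was called. The desmosome genes Dsg2 (4.80 ± 0.31 log2) and Dsp (4.37 ± 0.40 log2) were higher by 2 probe sets each. Khdc1a, a KH domain gene, was 8.31 ± 0.51 log2 higher in fetal ETP, and the glycosyltransferase gene B4galnt2 was 7.45 ± 0.32 log2 higher with fetal arrays from 3.23 to 3.97 and adult arrays from -4.16 to -3.40. Rps4l, a paralogue of the ribosomal protein gene Rps4x, was 7.05 ± 0.70 log2 higher, and whether its probe set also binds Rps4x transcripts was not tested. Asns, which encodes asparagine synthetase, was 5.23 ± 0.73 log2 higher.

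Cell cycle genes were higher in fetal ETP in the values as deposited. Among 63 measured genes of mitosis and the spindle, 21 (33.3%) were higher and none was lower, with a median of 0.86 log2. They included Birc5 (survivin, 2.08 ± 0.52 log2), the cytokinesis genes Prc1 (1.87 ± 0.47 log2) and Kif20a (1.84 ± 0.31 log2), the cyclin gene Ccna2 (1.68 ± 0.25 log2) and the mitotic kinase gene Aurka (1.53 ± 0.35 log2). Kif20a lay at 0.06, 0.08 and 0.42 in fetal ETP and at -1.75, -1.99 and -1.22 in adult ETP, without overlap (adjusted p = 0.00215). The mean of the 63 genes lay at 0.06, -0.05 and -0.20 in fetal ETP and at -0.87, -1.32 and -0.94 in adult ETP, so that every adult array was below every fetal one. The count was sensitive to the processing: 5 genes were called after quantile normalization, where the median was 0.48 log2, 8 with only the 6 ETP arrays, 8 without fetal ETP replicate 2, 9 without fetal ETP replicate 1, and 12 without adult ETP replicate 2 or 3. Birc5 and Prc1 each lost their call without any 1 of these 4 arrays. With each array centred on its median 18 mitosis genes were called, with a median of 0.79 log2. Mki67 (-0.17 ± 0.31 log2) and Top2a (0.17 ± 0.20 log2), both widely used as marks of dividing cells, were not called.

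DNA replication genes showed the same direction, with 10 of 51 (19.6%) higher, none lower and a median of 0.69 log2, and with 1 called and a median of 0.30 log2 after quantile normalization. Without fetal ETP replicate 2 the count was 5, without adult ETP replicate 1 it was 15, and with only the 6 ETP arrays it was 3. Centring each array on its median gave 8, with a median of 0.62 log2. Uhrf1, which links replication to the upkeep of DNA methylation, led with 2.77 ± 0.58 log2 (adjusted p = 0.00782), at -0.62, 0.09 and 0.72 in fetal ETP and at -1.99, -2.62 and -3.51 in adult ETP. A second Uhrf1 probe set differed by only 0.63 ± 0.17 log2, under the 1.8-fold limit. The ribonucleotide reductase genes Rrm1 (2.34 ± 0.41 log2, and 0.65 log2 by a second probe set) and Rrm2 (1.71 ± 0.25 log2) and the helicase gene Mcm3 (1.56 ± 0.34 log2) were also higher. Pcna (0.72 ± 0.19 log2, adjusted p = 0.0287) stayed under the 1.8-fold limit. Of 29 genes of the G1 to S transition, 6 were higher, among them Ccne1 (2.46 ± 0.39 log2), E2f5 (3.04 ± 0.54 log2) and the inhibitor gene Cdkn1a (2.44 ± 0.41 log2). A second E2f5 probe set differed by 0.84 log2 and was not called. The inhibitor gene Cdkn2c, which encodes p18, was lower, at -3.18, -3.52 and -3.24 in fetal ETP and at -0.72, 0.04 and 0.77 in adult ETP (-3.34 ± 0.41 log2, adjusted p = 0.000182).

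Promoters of replication genes often hold the site of E2F factors. A promoter of Uhrf1, the replication gene with the largest difference by the probe sets counted, is therefore shown. Of the 2 Uhrf1 promoters, it is the one picked for the most matches, and a gene was counted when any of its promoters held a match. Promoter sequences are those of RefSeq on GRCm38.p6, from 250 bases before the gene start to 50 bases after it, with lower case letters except for the motif. The motifs searched on both strands were TTTCCCGC, TTTGGCGC, TTTCGCGC and TTTGCCGC. At least 1 of them was found in 4 of the 10 replication genes that were called (Mcm3, Mcm7, Uhrf1 and Orc1) and in 13 of the 34 with a promoter that were not (38.2%), against 4.07% of the 9887 measured genes that have a promoter in the table. Called and not called replication genes thus held the motif at similar shares, and Mcm7 and Orc1 lost their calls when single arrays were left out.
Uhrf1 promoter, chr17:56304063-56304362, plus strand: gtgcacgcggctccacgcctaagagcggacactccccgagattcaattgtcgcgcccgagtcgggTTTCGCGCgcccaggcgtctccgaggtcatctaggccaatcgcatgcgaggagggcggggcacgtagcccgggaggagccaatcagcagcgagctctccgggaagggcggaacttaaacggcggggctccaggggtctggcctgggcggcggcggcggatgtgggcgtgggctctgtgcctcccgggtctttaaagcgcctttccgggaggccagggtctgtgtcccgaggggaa

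Genes of protein turnover and energy supply were also higher in fetal ETP. Of 38 proteasome subunit genes 11 (28.9%) were higher and none was lower, with a median of 0.70 log2, such as Psmd7 (2.52 ± 0.52 log2) and Psmb3 (1.97 ± 0.31 log2, at -0.29, 0.48 and -0.05 in fetal ETP and at -1.49, -2.31 and -1.95 in adult ETP). No other probe set of Psmd7 or Psmb3 was called. After quantile normalization 4 proteasome genes were called and the median was 0.43 log2, without fetal ETP replicate 2 the count was 7, and with only the 6 ETP arrays it was 5. With each array centred on its median the count was 10. Of 78 subunit genes of oxidative phosphorylation 14 (17.9%) were higher, among them Atp5g1 (1.73 ± 0.37 log2), and Cox7a2l was lower. After quantile normalization 1 was called higher, with only the 6 ETP arrays 6, and without fetal ETP replicate 2 the number was 8. With each array centred on its median the number was 12. Of 22 genes of glycolysis and glucose uptake 5 were higher and none was lower, including the glucose transporter gene Slc2a1 (1.76 ± 0.39 log2, adjusted p = 0.0108) and the lactate transporter gene Slc16a1 (1.69 ± 0.25 log2, adjusted p = 0.000712), with 3 called without adult ETP replicate 3 and 2 with only the 6 ETP arrays. Of 45 cytoplasmic ribosomal protein genes 4 (8.89%) were higher and 1 (2.22%) was lower, against 6.16% and 4.06% of all genes, with a median of -0.02 log2.

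**Figure D3:**
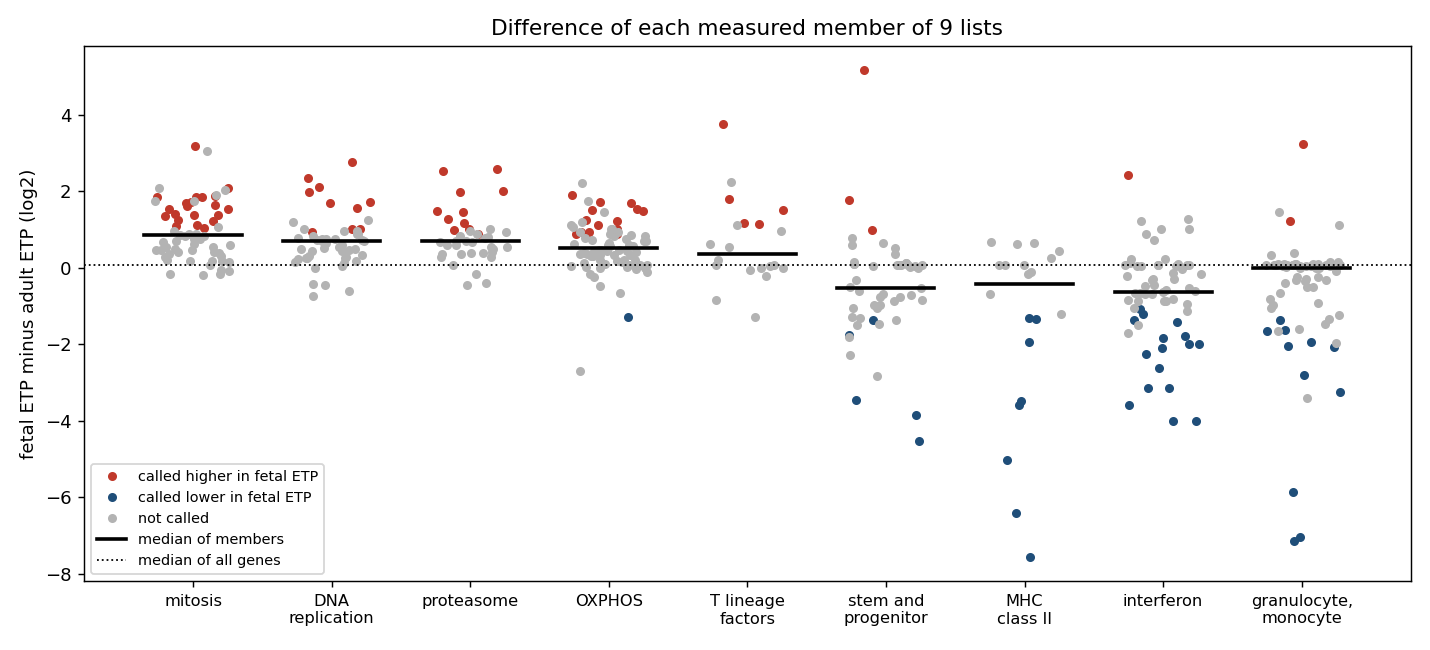
Fetal ETP minus adult ETP difference in log2 (vertical axis) of every measured member of 9 lists, red where called higher, blue where called lower and grey where not called, with the median of each list as a bar and that of all genes, 0.07, as a dotted line. The mitosis median of 0.86 lies furthest above it and the interferon median of -0.63 furthest below.

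Genes of antigen presentation through MHC class II were far lower in fetal ETP. H2-Aa, which encodes the α chain of I-A, lay at 0.01, -0.11 and 0.02 in fetal ETP and at 6.58, 8.51 and 7.52 in adult ETP. The fetal arrays sat at the middle of the series and every adult array was far above it (-7.56 ± 0.56 log2, adjusted p = 1.87e-06), though both H2-Aa probe sets are marked as able to bind related transcripts and the second differed by -1.03 log2. H2-Eb1, the β chain of I-E, lay between 0.00 and 0.03 in fetal ETP and at 6.23, 7.37 and 5.71 in adult ETP (-6.42 ± 0.28 log2, adjusted p = 8.85e-09). Cd74, the invariant chain, lay at 0.03, 0.00 and 0.36 in fetal ETP and at 7.08, 4.36 and 4.07 in adult ETP (-5.03 ± 0.54 log2). The peptide loading gene H2-DMa (-3.47 ± 0.52 log2), the protease gene Ctss (-3.58 ± 0.78 log2), H2-Oa (-1.95 ± 0.31 log2), the factor gene Rfx5 (-1.35 ± 0.35 log2) and the costimulator gene Cd86 (-1.32 ± 0.33 log2) completed the 8 of 20 measured genes that were lower, and none was higher. Rfx5 and Cd86 each lost their call when any 1 of 4 arrays was left out, Rfx5 for replicates 1 and 2 of both ages, and Cd86 for replicates 2 and 3 of both ages. H2-Ab1 lay between 0.00 and 0.04 in fetal ETP and at 0.19, 3.52 and -0.03 in adult ETP by the probe set counted and was not called, whereas another of its 3 probe sets, marked as able to bind related transcripts, was lower (-4.18 ± 0.49 log2, adjusted p = 0.000146). Ciita, the master regulator of the pathway, lay between -0.05 and 0.05 on all 6 arrays.

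The promoters of class II genes carry a Y box with the letters CCAAT, or ATTGG on the other strand, and those of the most strongly shifted chain genes are shown with that motif in capitals. It was found in 5 of the 6 called class II genes with a promoter in the table, in 4 of the 7 not called, and in 42.3% of all measured genes with a promoter, so that it is common in promoters of any kind.
H2-Aa promoter, chr17:34287774-34288073, minus strand: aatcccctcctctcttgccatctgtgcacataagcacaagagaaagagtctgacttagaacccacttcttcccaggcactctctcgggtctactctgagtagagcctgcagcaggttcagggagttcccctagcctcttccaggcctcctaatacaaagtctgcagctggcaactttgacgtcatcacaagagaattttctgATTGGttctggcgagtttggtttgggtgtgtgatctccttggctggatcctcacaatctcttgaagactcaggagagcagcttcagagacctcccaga
H2-Eb1 promoter, chr17:34305617-34305916, plus strand: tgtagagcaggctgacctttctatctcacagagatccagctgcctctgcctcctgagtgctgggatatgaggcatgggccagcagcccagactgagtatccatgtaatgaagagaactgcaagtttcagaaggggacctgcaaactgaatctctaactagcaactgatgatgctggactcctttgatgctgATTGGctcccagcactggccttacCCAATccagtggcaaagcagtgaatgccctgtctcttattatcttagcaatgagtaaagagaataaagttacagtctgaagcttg

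Myeloid genes were lower in fetal ETP in several members. Ctsg, the cathepsin G gene of neutrophil precursors, lay at -0.21, 0.46 and 0.21 in fetal ETP and at 6.95, 6.16 and 8.74 in adult ETP (-7.13 ± 0.58 log2, adjusted p = 4.42e-06). Mpeg1, a perforin-like gene of macrophages, lay between -0.01 and 0.02 in fetal ETP and at 7.36, 7.70 and 6.06 in adult ETP (-7.03 ± 0.48 log2, adjusted p = 9.48e-07). Cd163, a scavenger receptor of macrophages, was lower (-5.85 log2), as were Cd33 (-3.25 log2) and Lyz2, which encodes lysozyme (-2.81 log2). Csf1r, the receptor for macrophage colony-stimulating factor, was far above the middle of the series in both groups, at 7.5, 7.39 and 8.90 in fetal ETP and at 9.70, 9.46 and 9.50 in adult ETP (-1.63 ± 0.34 log2, adjusted p = 0.00814). Mpo, the myeloperoxidase gene, lay at 3.85, 4.15 and 3.64 in fetal ETP and at 5.78, 4.68 and 5.62 in adult ETP. The groups did not overlap, but Mpo was not called (-1.48 ± 1.39 log2, adjusted p = 0.419), with an SE from the spread pooled over all 18 arrays. Over 69 measured granulocyte and monocyte genes, 11 (15.9%) were lower and 2 were higher, Lgals3 (3.94, 5.03 and 0.70 in fetal ETP, from -0.03 to 0.02 in adult ETP) and Cx3cr1 (0.98, 2.18 and 0.53 in fetal ETP, from -0.03 to 0.03 in adult ETP), and the mean of the list ranged from 0.51 to 0.70 in fetal ETP and from 0.98 to 1.66 in adult ETP. Elane, an elastase gene, lay between 0.00 and 0.04 in fetal ETP and at 3.38, -0.04 and 2.52 in adult ETP. The calls of Lgals3 without fetal ETP replicate 1, of Cx3cr1 without fetal ETP replicate 2 and of Elane without any array but adult ETP replicate 2 were lost. Whether these genes are read from ETP themselves or from other cells in the gate was not tested. After quantile normalization 5 were called lower, and with each array centred on its median 11.

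Of 25 dendritic cell genes 4 were lower in fetal ETP and none was higher: Irf8, a factor of dendritic cells and monocytes (-0.11, 0.11 and 0.59 in fetal ETP, 4.55, 4.32 and 5.30 in adult ETP, -4.53 ± 0.89 log2, adjusted p = 0.00529), Flt3, Tlr7 (-2.10 ± 0.17 log2) and Tcf4 (-1.61 ± 0.36 log2). Of 26 B lineage genes 3 were lower (11.5%, against 4.06% of all genes). Ighm, the immunoglobulin μ locus, lay at -2.13, -2.0 and -2.26 in fetal ETP and at 2.56, 2.30 and 1.85 in adult ETP (-4.37 ± 0.23 log2, adjusted p = 5.00e-08), and Cd72 (-3.18 ± 0.49 log2) and Cd37 (-2.49 ± 0.36 log2) were lower too, while Cd79a and Pax5 did not vary, and Rag1, counted here too, was the member that was higher. Of the 11 Ighm probe sets, 1 other was lower (-8.04 log2), 9 lay between -0.06 and 0.15 log2, and the mean of all 11 was -1.07 log2. Igha, the immunoglobulin α locus, lay between -0.02 and 0.02 in fetal ETP and at 6.60, 5.20 and 5.51 in adult ETP (-5.77 ± 0.97 log2, adjusted p = 0.00191).

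Several well known progenitor genes were lower in fetal ETP, while the share of progenitor genes that was higher was close to that of all genes. Flt3, the cytokine receptor of multipotent and lymphoid progenitors, lay at 3.71, 3.27 and 3.52 in fetal ETP and at 6.75, 8.27 and 7.0 in adult ETP, above the middle of the series in both and higher on every adult array (-3.84 ± 0.56 log2, adjusted p = 0.000694). Lmo2, a cofactor of blood stem cells, lay at 4.58, 4.75 and 5.53 in fetal ETP and at 8.61, 8.09 and 8.52 in adult ETP (-3.45 ± 0.23 log2, adjusted p = 8.83e-07). Hoxa5 (-1.37 ± 0.25 log2) and Egfl7 (-1.75 ± 0.25 log2) were lower as well. Hoxa9 lay at 1.04, 0.50 and 1.76 in fetal ETP and at 4.03, 4.08 and 3.69 in adult ETP. The groups did not overlap, but Hoxa9 did not pass (-2.83 ± 1.32 log2, adjusted p = 0.150). That SE rests on the spread pooled over all 18 arrays, so that the miss does not show equal levels in ETP. Esam, an adhesion molecule of stem cells and endothelium, lay at 6.12, 5.95 and 5.95 in fetal ETP and at 0.48, 0.29 and 1.78 in adult ETP (5.16 ± 0.41 log2, adjusted p = 4.31e-06), and Prom1 was 1.77 ± 0.25 log2 higher. Of 49 stem and progenitor genes 3 (6.12%) were higher and 5 (10.2%) lower, against 6.16% and 4.06% of all genes. Their median of -0.52 log2 became -0.03 log2 after quantile normalization and -0.58 log2 with each array centred on its median. Without adult ETP replicate 1, 10 of them were called lower. The interleukin 1 receptor gene Il1r1 lay at 1.10, 0.29 and 0.06 in fetal ETP and at 7.38, 6.44 and 6.59 in adult ETP (-6.32 ± 0.25 log2, adjusted p = 3.79e-09). Adgrl4, an adhesion receptor best known from endothelium, lay between 0.00 and 0.05 in fetal ETP and at 9.12, 8.17 and 8.61 in adult ETP (-8.60 ± 0.16 log2, adjusted p = 3.93e-13). Eng, which encodes the coreceptor endoglin, was lower (-3.96 ± 0.31 log2). So were Fgf13 (-6.64 ± 0.25 log2), Plbd1 (-6.05 ± 0.06 log2), Abhd4 (-5.91 ± 0.45 log2), the adhesion gene Alcam (-5.58 ± 0.52 log2) and Traf3ip2, an adaptor of the interleukin 17 receptor (-5.42 ± 0.24 log2).

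Genes that interferon induces were lower in fetal ETP. Rsad2, the antiviral enzyme viperin, lay at -0.58, -2.47 and -0.38 in fetal ETP and at 1.90, 3.61 and 3.09 in adult ETP (-4.01 ± 0.60 log2, adjusted p = 0.000866). Ifit1, which binds viral RNA, lay at 0.03, -0.01 and 0.00 in fetal ETP and at 1.85, 2.45 and 5.12 in adult ETP (-3.14 ± 0.62 log2, adjusted p = 0.00558). In both genes every fetal array was below every adult array, and in Ifit1 the adult arrays were unequal. The schlafen gene Slfn8 (-4.01 ± 0.40 log2), the RNA sensor gene Dhx58 (-3.58 ± 0.54 log2), Oasl2 (-3.13 ± 0.73 log2), Oas2 (-2.25 ± 0.17 log2) and the factor genes Irf7 (-1.09 ± 0.28 log2) and Irf9 (-1.20 ± 0.31 log2) were lower too. Oasl2 lost its call without fetal ETP replicate 2, and Irf7 and Irf9 without any array but adult ETP replicate 2. Of 62 measured antiviral genes 16 (25.8%) were lower and 1, Slfn2, was higher, with a median of -0.63 log2, and the median was -0.58 log2 after quantile normalization with 10 lower. With only the 6 ETP arrays 9 were lower, and with each array centred on its median 19. Of 11 interferon-inducible GTPase genes 4 were lower, among them Iigp1 (-2.86 ± 0.48 log2) and Ifi47 (-1.06 ± 0.11 log2, adjusted p = 4.54e-05), with 2 lower without fetal ETP replicate 1 or 2. Of 5 p200 family genes Ifi209 (-4.95 ± 0.72 log2) and Mndal (-1.94 ± 0.29 log2) were lower. Of 21 MHC class I presentation genes 5 were lower and 1, the chaperone gene Pdia3 (1.31 ± 0.32 log2), was higher, with a median of 0.06 log2 against 0.07 log2 over all genes. H2-D1 lay at -0.85, -0.46 and -1.55 in fetal ETP and at 2.13, 2.13 and 0.46 in adult ETP (-2.53 ± 0.41 log2, adjusted p = 0.00140), and H2-K1 (-1.78 log2) and the peptide transporter gene Tap1 (-1.56 log2) were lower. None of the 21 was called lower with only the 6 ETP arrays. With the mean of all probe sets in place of 1, H2-D1 and Tap1 were not called, and several of the 9 H2-D1 probe sets are marked as able to bind related transcripts.

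The binding site of interferon-activated factors, the ISRE, was searched on both strands as a pair of GAAA blocks with 2 bases of any kind between them. It was found in 5 of the 10 lower antiviral genes with a promoter in the table (Rsad2, Ifit1, Oas1a, Trim34a and Slfn8), in 14 of the 40 that were not called, and in 3.84% of all measured genes with a promoter. The promoters of Rsad2 and Ifit1, whose values on each array are given above, are shown with each match in capitals.
Rsad2 promoter, chr12:26456403-26456702, minus strand: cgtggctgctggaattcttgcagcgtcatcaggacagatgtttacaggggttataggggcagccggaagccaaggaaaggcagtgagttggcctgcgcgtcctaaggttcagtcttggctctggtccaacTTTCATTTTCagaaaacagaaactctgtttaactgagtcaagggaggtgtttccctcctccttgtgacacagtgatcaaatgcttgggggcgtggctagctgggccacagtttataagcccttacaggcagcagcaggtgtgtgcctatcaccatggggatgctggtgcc
Ifit1 promoter, chr19:34640639-34640938, plus strand: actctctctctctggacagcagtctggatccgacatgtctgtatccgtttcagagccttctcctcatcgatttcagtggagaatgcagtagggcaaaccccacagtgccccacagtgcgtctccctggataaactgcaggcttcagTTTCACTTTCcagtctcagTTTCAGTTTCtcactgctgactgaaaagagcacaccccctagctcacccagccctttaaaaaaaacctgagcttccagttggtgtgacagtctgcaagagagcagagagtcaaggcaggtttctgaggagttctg
The match began 120 bases before the gene start in Rsad2, and in Ifit1 the 2 matches began 104 and 85 bases before it.

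**Figure D4:**
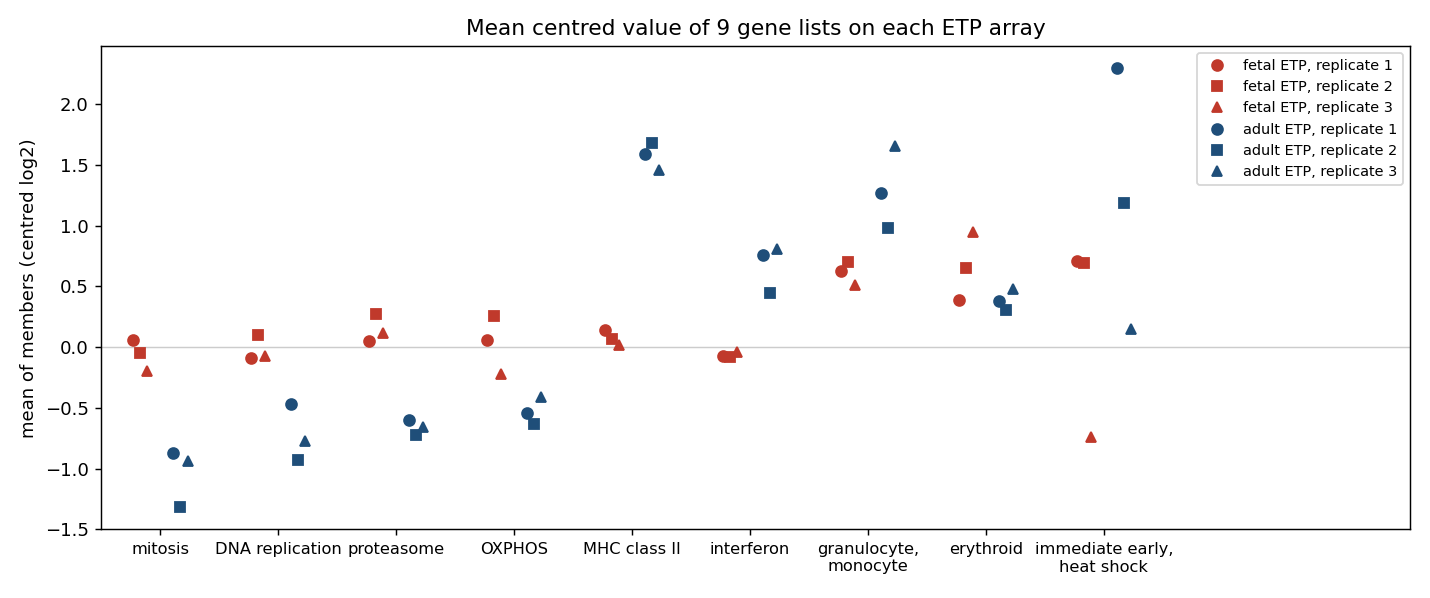
Mean centred log2 value (vertical axis) of the measured members of 9 lists on each fetal ETP array (red, left) and adult ETP array (blue, right), with a symbol for each replicate. The mitosis, replication, proteasome, oxidative phosphorylation, MHC class II, interferon and granulocyte and monocyte lists separate the groups. In contrast, fetal ETP replicate 3 is the highest in the erythroid list and the lowest in the immediate early list.

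Signalling and survival genes changed singly. Of 31 measured TGF-β and BMP pathway genes 3 were higher and 3 lower (9.68% each, against 6.16% and 4.06% of all genes). Smad6 (1.81 ± 0.30 log2), Bmpr1a (1.64 ± 0.35 log2) and Id2 were higher. Eng, Smad1 (-2.15 ± 0.41 log2) and the common mediator Smad4 (-1.85 ± 0.24 log2) were lower. Bmpr1a was called by a single probe set, and its call was lost after quantile normalization or with the mean of all probe sets. In the interleukin 7 and γc pathway Socs2, a feedback inhibitor, was 4.04 ± 0.83 log2 higher (adjusted p = 0.00681), whereas Il7r was not called (1.08 ± 0.33 log2, adjusted p = 0.0550, with 0.85 ± 0.14 log2 and adjusted p = 0.00166 for a second probe set), and Jak1, Cish, Crlf2 and Stat4 were lower (-1.64, -1.59, -1.22 and -0.86 log2). None of these 4 was called without adult ETP replicate 3 or fetal ETP replicate 2 or 3. Pmaip1, which encodes the pro-apoptotic protein NOXA, was 3.88 ± 0.74 log2 higher (adjusted p = 0.00437), and Bcl2 was not called (-0.69 ± 0.48 log2). Among chromatin genes, Rbbp4 (3.21 ± 0.61 log2), Pcgf6 (2.55 ± 0.48 log2), Rnf2, the ligase of Polycomb complex 1 (1.51 ± 0.19 log2, adjusted p = 0.000255), and Dnmt3a (0.89 ± 0.17 log2) were higher, and Ezh1 (-1.94 ± 0.30 log2) and Tet1 (-1.13 ± 0.23 log2) were lower. The other Dnmt3a probe sets were not called. Its call was lost after median centring or quantile normalization, with the 2-fold limit or the mean of all probe sets, and without adult ETP replicate 2. Among 15 Kruppel-like factor genes only Klf9 was called (-3.90 ± 0.53 log2), by 1 of its 7 probe sets.

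Some lists followed single arrays. The erythroid list held 3 genes higher of 30 (10.0%, against 6.16% of all genes), Ermap, Rhag and Gata1. Its mean was 0.39, 0.65 and 0.95 in fetal ETP and from 0.31 to 0.48 in adult ETP. The embryonic globin gene Hbb-y lay at 0.04, 3.96 and 4.58 in fetal ETP and between -0.08 and 0.00 in adult ETP, and the haem synthesis gene Alas2 was high on fetal ETP replicate 3 alone (4.12), and neither was called. Leaving out any 1 array left 1 or 2 erythroid genes called, whereas with only the 6 ETP arrays none was called higher and 2 were called lower. Immediate early genes, which cells switch on within minutes of stimulation, were uneven within both groups. Fos lay at 4.23, 4.49 and -6.35 in fetal ETP and at 5.56, 5.20 and 2.38 in adult ETP, and Jun at 3.01, 2.65 and -3.62 in fetal ETP and at 5.67, 2.93 and 0.70 in adult ETP. The third array was the lowest in each group, and only Egr1 and Btg1 were called lower and Hsph1 higher among 33 genes. Egr1 lost its call without adult ETP replicate 1 or 2 or fetal ETP replicate 3. Xist, expressed in female cells, lay at 0.23, -0.39 and 0.03 in fetal ETP and at 0.76, 1.41 and 0.13 in adult ETP. It was not called, nor were the Y chromosome genes Eif2s3y, Kdm5d and Uty, so that the centred values of these genes did not separate the sexes. Of 9 sex-linked genes only Ddx3x was called, higher in fetal ETP (3.07 ± 0.88 log2, adjusted p = 0.0404). Its other probe sets (0.38 and 0.60 log2) were not called, and its call was lost under 10 alternative settings.

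The fetal ETP difference was compared with that at the later stages, fetal DN2 against adult DN2 and fetal DN3 against adult DN3, which share no array with it. At DN2 779 probe sets were called (3.44%), 423 higher (1.87%) and 356 lower (1.57%) in fetal cells. At DN3 626 were called (2.77%), 363 higher (1.6%) and 263 lower (1.16%). Of the 1141 probe sets higher in fetal ETP, 258 were also higher in fetal DN2, which is 22.6% of the ETP calls and 61.0% of the DN2 calls, and 131 in fetal DN3 (11.5% and 36.1%). Of the 780 lower probe sets, 233 were also lower in fetal DN2 (29.9% and 65.4%) and 128 in fetal DN3 (16.4% and 48.7%). Calls in the opposite direction were few, 3 and 0 at DN2 and 3 and 5 at DN3 for the higher and the lower ETP probe sets. Being called at ETP and not later is no test of a change. Tested directly, the difference changed between ETP and DN2 at 180 probe sets (0.796%), toward higher values at ETP in 0.305% and lower ones in 0.491%, and between ETP and DN3 at 564 (2.49%), with 1.1% and 1.39%. Of the probe sets higher in fetal ETP, 55 had a larger difference than at DN2 and 189 a larger one than at DN3 by this test, and of the lower ones, 90 and 169. The 2 sets of tests share the ETP arrays.

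Differences that held at every stage included Dntt (-11.72 log2 at ETP, -12.61 at DN2 and -12.63 at DN3), Igf2bp1 (6.32, 6.28 and 6.36), B4galnt2 (7.45, 7.57 and 7.42), Enah (7.24, 8.64 and 8.65) and Fgf13 (-6.64, -5.21 and -6.56), none of which changed by the test. Differences larger at ETP than at both later stages included the T cell and granzyme genes Cd3g (7.37 at ETP, 0.15 at DN2 and -0.03 at DN3), Bcl11b (3.75, -0.80 and -0.55) and Gzma (9.15, 2.94 and 1.19), and on the lower side H2-Aa, H2-Eb1, Cd74, Mpeg1, Ctsg, Plbd1, Il1r1, Adgrl4, Lmo2 and Eng. Igf2 went the other way, with 4.46 log2 at ETP, 7.82 at DN2 and 9.36 at DN3, a change that passed the test against DN3, and Hmga2 likewise with 2.82, 7.09 and 5.57, passing against both. Interferon antiviral genes were lower at 16 of 62 in fetal ETP, and Rsad2 (-4.01, -3.30 and -3.53), Slfn8 (-4.01, -2.87 and -1.86) and Dhx58 (-3.58, -3.17 and -2.64) did not change by the test.

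**Figure D5:**
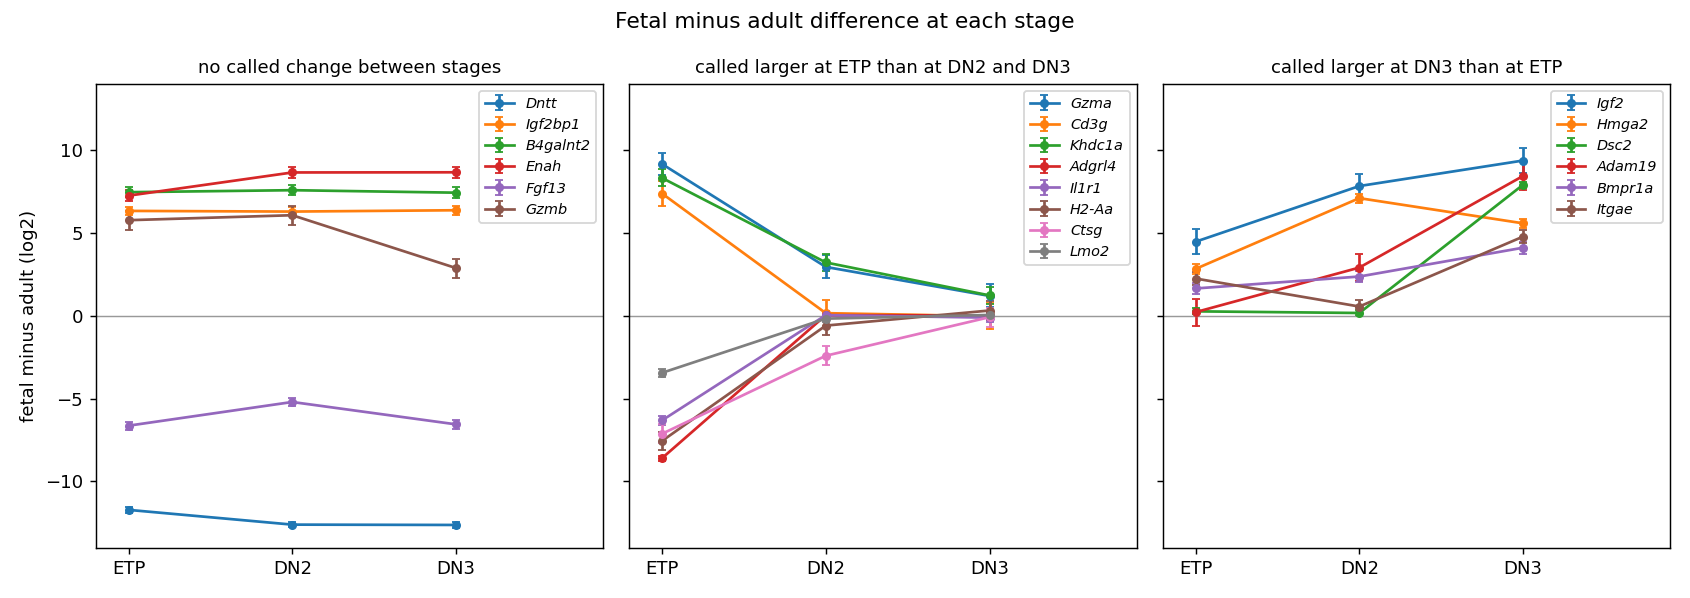
Fetal minus adult difference in log2 (vertical axis) at ETP, DN2 and DN3 (horizontal axis) for genes whose difference was not called as changed between stages (left), was called larger at ETP than at both later stages (middle) or was called larger at DN3 than at ETP (right), with bars of 1 SE. The 8 genes in the middle approach 0 after ETP, and Igf2 reaches 9.36 at DN3.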

How the data were processed

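Affymetrix mouse arrays measured RNA of sorted fetal and adult thymocytes at the ETP, DN2 and DN3 stages, with 3 arrays in each of 6 groups. The authors deposited log2 values made with GCRMA (no version in the submitters' processing notes), with the median of every probe set across the 18 arrays set to 0, and no filter on low levels could therefore be used. The files name no genome build. All columns were assigned to a group by their titles (0 columns not mapped).

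A linear model with 1 mean per group was fitted to all 18 arrays with limma 3.58.1 (R 4.3.3) and moderated variances (median SD 0.229 log2, 12 residual degrees of freedom), with Benjamini-Hochberg adjustment over 22626 probe sets. The change of the fetal minus adult difference between stages was a contrast in the same fit. A call needed an adjusted p under 0.05 and a difference of at least 1.8-fold. Probe sets were named from the platform annotation: 20380 had 1 gene, 691 several and 1555 none, and 12377 of the 12393 gene symbols were found in RefSeq. For genes with several probe sets (4956), probe sets not marked as cross-hybridizing came first (287 genes had none) and then the largest SD. Simulated data had independent normal noise with the SD of each probe set pooled over all groups, without the larger spread of adult ETP. In these data 22, 36, 43 and 49 of 50 changed probe sets were called at differences of 1, 1.5, 2 and 3 log2, and 1 unchanged one.

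Genes were named in the text by rule: the 20 largest rises and falls among called genes without overlap, up to 6 called members of each of 42 lists, genes the study names, sorting and sex-linked genes, and the 10 largest changes between stages, with some members of these lists added for reference. Members and lists were chosen with earlier results of these data known. Alternatives covered the arrays in the fit, weights, scaling, variance model, fold limit, a span filter, the replicate number, the mean of all probe sets, and leaving out single arrays. Promoter motifs were counted with Python 3.11.15.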

Additional observations from a re-analysis of the deposited data

Results flagged for a closer look

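The fetal minus adult difference was tested for a change between ETP and the later stages, and the results below passed that test (adjusted p under 0.05 and 1.8-fold, limma). Groups of 3 arrays are too small for a test of single outlying arrays.

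Between ETP and DN2 the difference changed at 180 probe sets, and between ETP and DN3 at 564. The values below are the difference at ETP minus the difference at the later stage. Against DN2, the genes with the largest changes toward higher values in fetal ETP were Cd3g (7.22 log2), Sytl2, a vesicle transport gene (6.43 log2), Gzma (6.21 log2) and Ddc (5.80 log2). The largest toward lower values were Adgrl4 (-8.63 log2), H2-Aa (-6.96 log2), H2-Eb1 (-6.52 log2), Il1r1 (-6.35 log2), Mpeg1 (-6.20 log2) and Plbd1 (-6.08 log2). For these 6 the difference at DN2 lay between -0.83 and 0.10 log2, whereas Sytl2 and Ddc had opposite signs, 2.95 at ETP and -3.48 at DN2 for Sytl2, and 4.25 at ETP and -1.56 at DN2 for Ddc.

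Against DN3, Gzma changed by 7.96 log2, H2-Aa by -7.87 log2 and Adgrl4 by -8.61 log2, each with the larger difference at ETP. The other 7 genes had little difference at ETP and a large one at DN3, where fetal cells were higher: Ifi204 (-9.69 log2), Pdlim4 (-8.91 log2), Fgfbp1 (-8.67 log2), Adam19 (-8.23 log2), Cntnap2 (-8.05 log2), Gpr83 (-7.68 log2) and Dsc2 (-7.65 log2). Ifi204, an interferon-inducible gene, was not called at ETP (-0.91 log2, adjusted p = 0.434) and was 8.78 log2 higher in fetal DN3 than in adult DN3.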

How the results depend on the processing

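Counts depended on how the spread was estimated and on scaling. With only the 6 ETP arrays, 534 probe sets were called higher in fetal ETP and 472 lower, and after quantile normalization 425 and 495, with 115 and 343 for the change against DN2 and DN3. Array weights gave 1770 higher, 1278 at DN3 and 1464 for the change against DN3. A one-way test with adjustment called 123 higher and 146 lower. Leaving out 1 array gave 719 to 1354 higher and 535 to 776 lower at ETP, 415 to 969 at DN2, 452 to 638 at DN3, 136 to 315 for the change against DN2 (315 without adult ETP replicate 1) and 382 to 781 for that against DN3. Same-numbered fetal and adult ETP arrays did not deviate together over all probe sets (correlations of 0.188, -0.341 and -0.0629). Deviations from a mean of 3 arrays constrain each other, so that these correlations cannot exclude a shared effect of the replicate number. The replicate block gave 1246 higher and 842 lower, and with only the 6 ETP arrays, chosen after seeing the data, 63 and 79. No alternative turned a named gene round except Lat, at -0.09 log2 after quantile normalization. A gene near the fold limit or uneven between arrays can be missed with 3 arrays a group.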
